A study of Mus musculus with 17 samples.

Results

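The 45 genes described here drive a cell through division, from the D-type cyclins that open the cycle to the centromere proteins and kinesins that separate the chromosomes. They were taken by name for their roles, not by a threshold on measured values, but with earlier results of these data known. They are 45 of the 35971 genes obtained by summing transcripts, and 45 of 45 are among the 17011 genes that passed the filter on low counts and were tested. They fall into 7 roles. Mki67 and Top2a mark proliferating cells. Ccnd1, Ccnd2, Ccnd3, Ccne1, Ccne2, Cdk2, Cdk4 and Cdk6 are the G1 cyclins and their kinases. E2f1, E2f2, Foxm1 and Mybl2 are transcription factors of the cycle. Mcm2, Mcm3, Mcm4, Mcm5, Mcm6, Mcm7, Pcna, Rrm1, Rrm2, Tyms and Tk1 copy DNA or make its building blocks. Cdk1, Ccna2, Ccnb1 and Ccnb2 form the kinase complexes of S phase, G2 and mitosis. Bub1, Bub1b, Aurka, Aurkb, Plk1, Cdc20 and Ube2c are mitotic kinases, checkpoint proteins and partners of the anaphase-promoting complex, listed with Birc5, a subunit of the chromosomal passenger complex. Cenpa, Cenpe, Cenpf, Kif11, Kif20a, Tpx2, Nusap1 and Prc1 build the kinetochore, the spindle and the midzone at which the cell divides.

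The RNA came from kidney tissue of mice that model renal cell carcinoma with the PRCC-TFE3 gene fusion, and polyadenylated RNA was sequenced in 17 libraries, each from a different mouse. The series asks what the fusion does in the kidney and what is altered when Hif1a or Epas1, which encode HIF1α and HIF2α, are also deleted. The fusion is inserted behind a loxP-flanked stop (lsl-PRCC-TFE3, at the Rosa26 locus) and is switched on by KSP-Cre, which the Cadherin16 promoter drives in kidney epithelium, so stroma, vessels and blood cells in the same tissue are not recombined by design. Cre(−) (n = 4) carried the silent insertion without KSP-Cre, and its replicates 1 and 2 also carried HIF1a f/f while replicates 3 and 4 carried no floxed allele. KI (n = 3) carried lsl-PRCC-TFE3 with KSP-Cre, KI/Hif1α KO (n = 4) added HIF1a f/f, KI/Hif2α KO (n = 3) added HIF2a f/f, and KI/DKO (n = 3) added both floxed genes. The mice were adults, and the labels give neither age nor sex. Library numbers largely run group by group and no batch is stated, so a processing order and the genotype cannot be told apart.

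Summed counts per library ranged from 18547274 to 22641506 in Cre(−), from 16504419 to 18173319 in KI, and from 16710464 to 24668827 in KI/Hif1α KO. They ranged from 18001108 to 21711031 in KI/Hif2α KO and from 17347474 to 18635282 in KI/DKO. Levels of a gene are given as CPM, its counts relative to the library total after scaling by the trimmed mean of M-values (TMM), and levels of different genes are compared in TPM, which also takes transcript length into account. The lowest count of any member in a library was 1, and 2 members had a count of 3 or fewer somewhere. Such a floor of 3 counts corresponds to 0.117 to 0.206 CPM and covers counting error only, while SDs and SEs also take in the spread between mice.

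Most cells of an adult kidney are out of the cycle. Entry begins when D-type cyclins with Cdk4 or Cdk6 release E2F factors, which switch on genes for DNA synthesis, and a later wave under Foxm1 and Mybl2 supplies the mitotic machinery before Cdk1 with cyclin B triggers mitosis. Many of these transcripts are made in S phase, G2 and mitosis and removed afterwards, so in a tissue they are widely used as a measure of how many cells are dividing. In bulk tissue, fewer cells of a type and less RNA per cell cannot be told apart.

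KI replicate 3 stood apart from the other Cre-positive libraries. It was the lowest of the 3 KI libraries for 42 of 45 members and the lowest of all 13 Cre-positive libraries for 37. It lay above every Cre(−) library for 31 members, against 40 members each in KI replicates 1 and 2. The mean level of the 45 members (log2 CPM) was 2.28, 1.95, 2.22 and 1.98 in Cre(−), 3.68, 3.59 and 2.72 in KI, 3.50, 3.60, 3.68 and 3.65 in KI/Hif1α KO, 3.97, 3.73 and 3.98 in KI/Hif2α KO, and 3.77, 3.75 and 3.49 in KI/DKO. Every Cre-positive library was above every Cre(−) library, and KI replicate 3 was nearest to them.

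**Figure D1:**
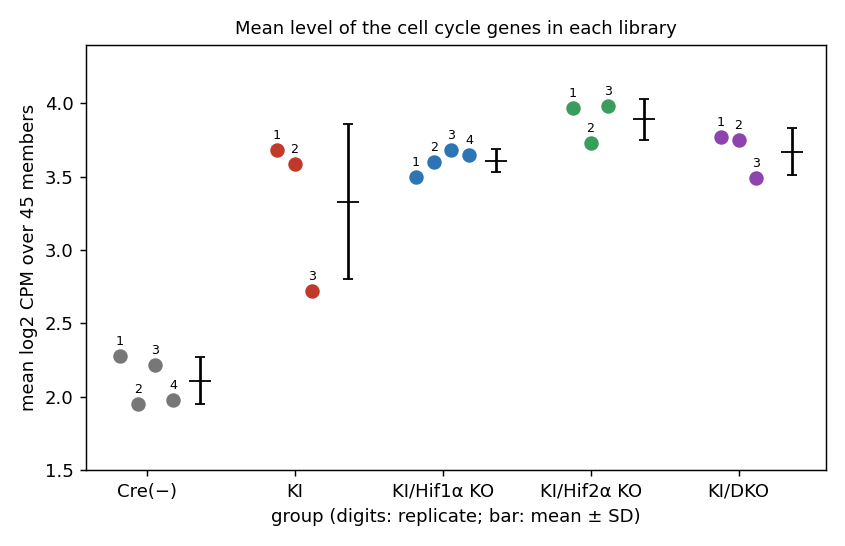
Mean log2 CPM over the 45 members in each of the 17 libraries by group, with the group mean and SD. Cre(−) libraries lie between 1.95 and 2.28, KI replicate 3 at 2.72, and the other 12 Cre-positive libraries between 3.49 and 3.98.

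The same library differed in blood and immune transcripts. Its summed erythroid markers were 1090 TPM, against 60.4 and 80.7 TPM in KI replicates 1 and 2, 770 to 1770 TPM in Cre(−) and 64.9 to 270 TPM in the other Cre-positive groups, with Hbb-bs the most abundant (23.5 to 739 TPM). Its T cell markers summed to 9.31 TPM and its B and plasma cell markers to 34.4 TPM, against 20.8 and 42.8 TPM, and 76.5 and 190 TPM, in KI replicates 1 and 2. KI replicate 2 stood apart in adipocyte markers, at 3630 TPM against 75.3 to 695 TPM in every other library, with Cfd the most abundant. The part of these transcripts in the members' values was not tested.

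The targeted genes come before the members. Hif1a had 102, 128, 118 and 118 CPM in Cre(−), 228, 232 and 184 in KI, 163, 193, 189 and 198 in KI/Hif1α KO, 170, 199 and 256 in KI/Hif2α KO, and 188, 174 and 203 in KI/DKO. All Cre-positive libraries were above all Cre(−) libraries, and those with floxed Hif1a overlapped KI. Epas1 had 196, 205, 243 and 257 CPM in Cre(−), 173, 192 and 179 in KI, 163, 169, 166 and 179 in KI/Hif1α KO, 146, 149 and 136 in KI/Hif2α KO, and 155, 165 and 158 in KI/DKO. The 6 libraries with floxed Epas1 were all below the 3 KI libraries.

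Every adjusted p given here is from the quasi-likelihood test of edgeR, adjusted over all tested genes by Benjamini-Hochberg. Hif1a was 0.88 (log2) higher in KI than in Cre(−) (SE 0.13, adjusted p = 2.47e-05, 3 of 3 libraries), and Epas1 was −0.31 (SE 0.09, adjusted p = 0.0059, 3 of 3 libraries). The direction for Epas1 depends on the scale: without TMM it was 0.03 and by limma on log2 TPM 0.14, neither past the threshold, and with only the Cre(−) mice with HIF1a f/f it was −0.14 and did not pass. Hif1a differed from KI by −0.21 in KI/Hif1α KO (adjusted p = 0.372) and by −0.19 in KI/DKO (adjusted p = 0.395). Epas1 differed from KI by −0.33 in KI/Hif2α KO (SE 0.09, adjusted p = 0.0788, 3 of 3 libraries lower, past the threshold by DESeq2 at 0.0139) and by −0.18 in KI/DKO (adjusted p = 0.208). A count summed over a whole gene, in tissue where only epithelium is recombined, does not check whether a floxed exon is gone. Tfe3, whose 3′ exons the fusion shares, rose by 0.65 in KI (SE 0.08, adjusted p = 3.34e-06).

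The first comparison sets KI against Cre(−) and asks what the kidney's division genes do when the fusion is on. Most of them rose: 38 of 45 members were higher in KI and 2 were lower at an adjusted p under 0.05, where 31.6% of all tested genes were higher and 29.3% lower. The median difference over members was 1.28 (log2, from −0.94 to 3.55), and the median of all tested genes was 0.03. The mitotic genes and proliferation markers differed most, the G1 and replication genes less, and the lower pair was Ccnd3 and Tyms. Without KI replicate 3 the counts were 39 and 2. Library composition differed with the group: mitochondrial genes took 19.1 to 23.1% of counts in Cre(−) and 8.32 to 12.4% in the Cre-positive libraries, and TMM factors were 0.793 to 0.833 against 0.974 to 1.12. Without TMM, 40 members were higher and 1 lower, and of the 17011 tested genes 8546 were higher and 2991 lower, against 5381 and 4981 with it.

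**Figure D2:**
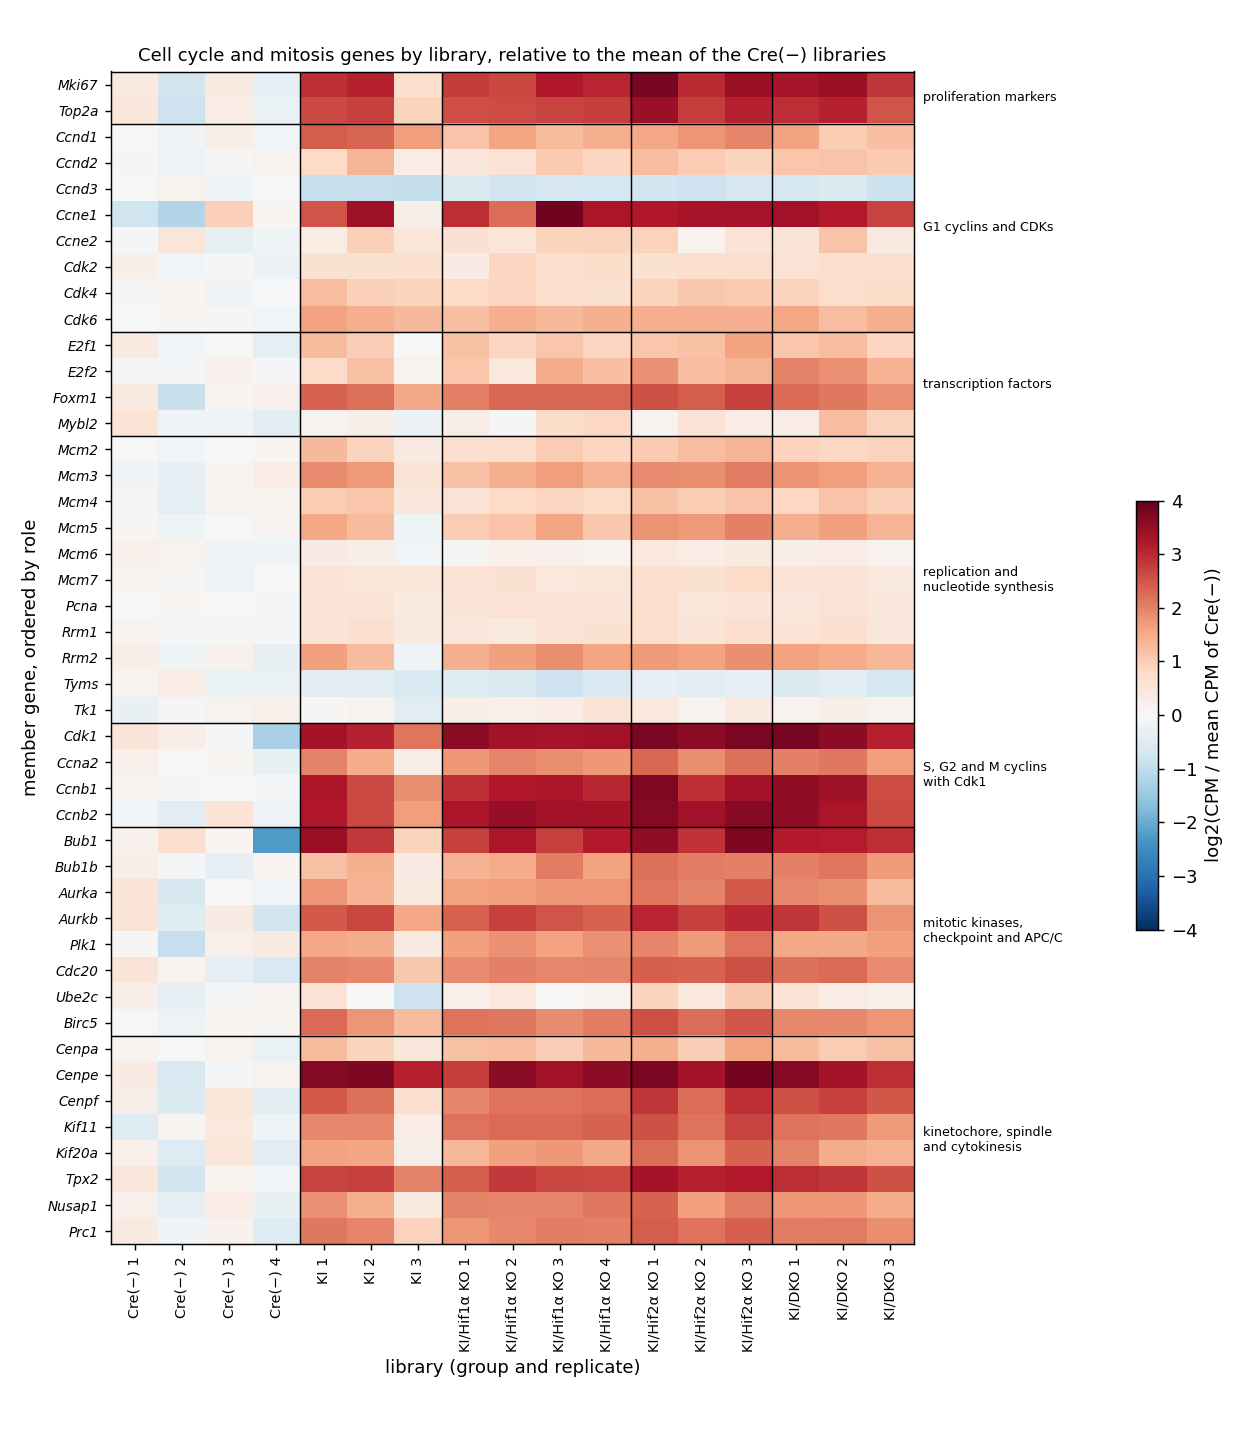
Level of each of the 45 members in each of the 17 libraries, as log2 of CPM over the mean CPM in Cre(−), in order of role. The 4 Cre(−) columns lie mostly near 0, the other columns are mostly above 0, and KI replicate 3 is the palest Cre-positive column (lowest of the 13 for 37 members).

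Both proliferation markers rose. Mki67, which encodes the Ki-67 antigen of dividing cells (ENSMUSG00000031004.8, chromosome 7, 135689784 to 135716361 in GRCm38), had 8.23, 3.80, 8.01 and 5.05 CPM in Cre(−) and 47.5, 52.5 and 10.3 CPM in KI. KI replicate 3 was barely above the highest Cre(−) library and the other KI libraries were far above it, so the groups did not overlap. Cre(−) averaged 6.27 ± 2.19 CPM (SD, n = 4) where KI averaged 36.7 ± 23.1 CPM (SD, n = 3), and the difference was 2.56 (log2, SE 0.42, adjusted p = 8.34e-05, 3 of 3 libraries). Top2a, the topoisomerase that untangles replicated chromosomes (ENSMUSG00000020914.17, chromosome 11, 98992943 to 99024189), had 4.59, 1.87, 4.04 and 2.78 CPM in Cre(−) and 20.8, 22.1 and 6.16 CPM in KI. Its groups did not overlap either, and its difference was 2.31 (SE 0.36, adjusted p = 4.96e-05, 3 of 3 libraries).

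**Figure D3:**
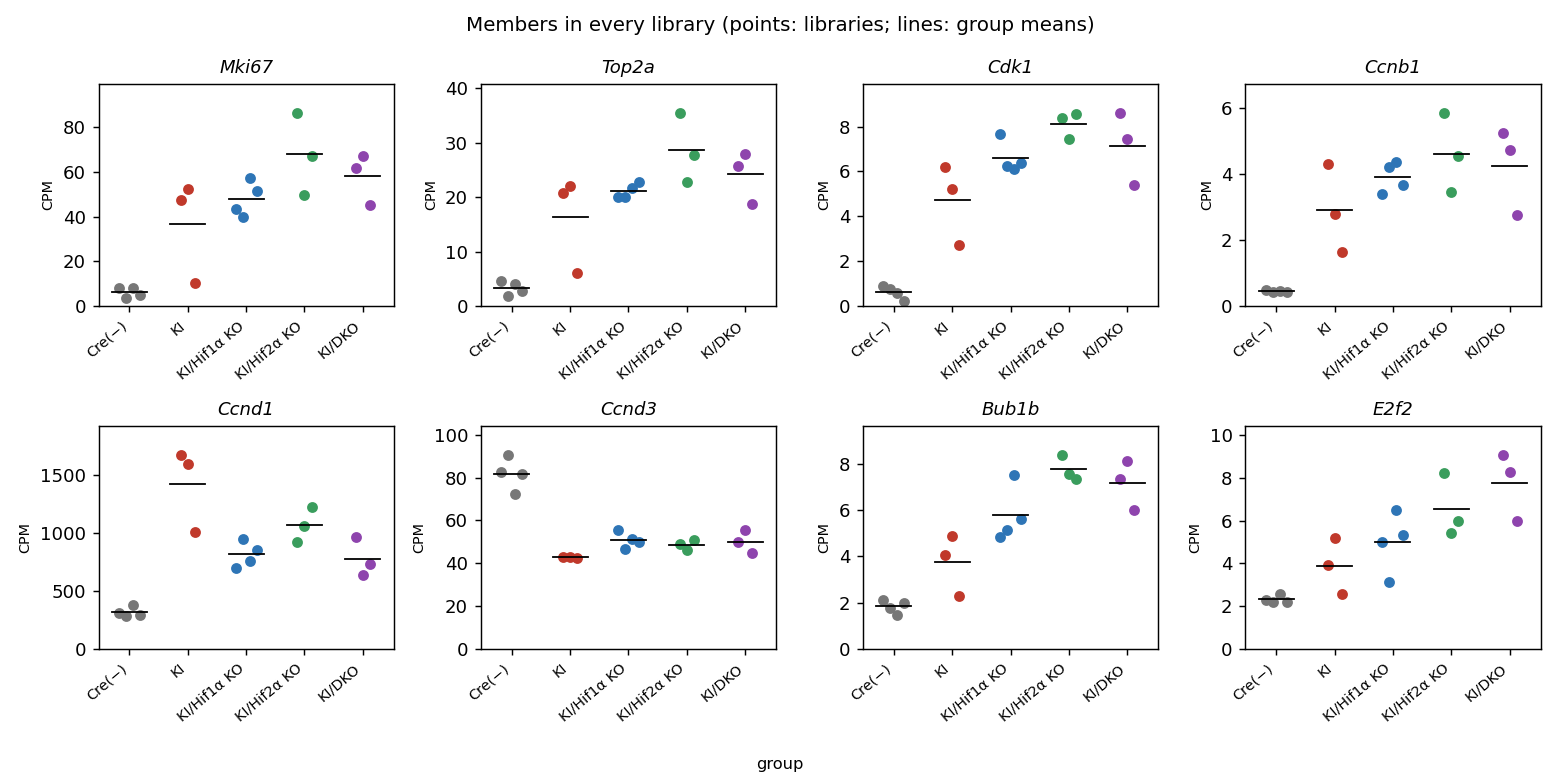
CPM of Mki67, Top2a, Cdk1, Ccnb1, Ccnd1, Ccnd3, Bub1b and E2f2 in each library by group, with group means as bars across the points. Ccnd1 runs from 1010 to 1670 in KI and from 285 to 374 in Cre(−), and Ccnd3 lies lower in KI (42.3 to 43.0) than in Cre(−) (72.2 to 90.5).

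Of the 8 G1 cyclins and kinases, 6 rose and 1 fell (median 0.95). Ccnd1, the cyclin D1 that partners Cdk4 and Cdk6 (ENSMUSG00000070348.5, chromosome 7, 144929931 to 144939925), had 309, 285, 374 and 290 CPM in Cre(−) and 1670, 1590 and 1010 CPM in KI. Even the lowest KI library, replicate 3, was well above the highest Cre(−) library, and the difference was 2.18 (SE 0.18, adjusted p = 9.92e-08, 3 of 3 libraries). Per length, Ccnd1 was the most abundant member in each of the 5 groups, at a mean of 94.8 TPM in Cre(−) and 599 TPM in KI. Its exons overlap those of a neighbouring gene, LTO1, over 23.4% of their length, and the strand setting of the counting is not stated. Overlaps with a neighbour also cover 11.1 to 29.3% of the exons of Cdk4, Ccne2, Ccna2, Kif20a, Ube2c and Prc1.

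The other D-type cyclins went in opposite directions. Ccnd2 had 22.4, 20.1, 24.0 and 25.6 CPM in Cre(−) and 40.1, 58.6 and 28.2 CPM in KI, a difference of 0.88 (SE 0.19, adjusted p = 0.000985), or 0.57 without KI replicate 2. Ccnd3 (ENSMUSG00000034165.16, chromosome 17, 47505051 to 47599691) had 82.8, 90.5, 72.2 and 81.6 CPM in Cre(−) and 42.9, 43.0 and 42.3 CPM in KI. The KI libraries were almost alike and all below Cre(−), and Ccnd3 fell by 0.94 (SE 0.09, adjusted p = 2.12e-07, 3 of 3 libraries). In Cre(−) Ccnd3 was the second member in TPM, at 71.6, after Ccnd1 and before Cdk4 at 63.9 and Pcna at 40.9. In KI that order was Ccnd1, then Cdk4 at 212, Pcna at 79.7 and Ccnd3 at 53.1 TPM.

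The kinases of G1 rose with narrow spread. Cdk4 (ENSMUSG00000006728.12, chromosome 10, 127063534 to 127067920) had 70.3, 71.6, 61.0 and 69.0 CPM in Cre(−) and 160, 131 and 125 CPM in KI, a difference of 1.03 (SE 0.10, adjusted p = 2.85e-07). Cdk6 had 32.6, 34.2, 33.4 and 30.4 CPM in Cre(−) and 99.0, 90.3 and 80.3 CPM in KI, a difference of 1.46 (SE 0.09, adjusted p = 4.61e-09). Both kinases were clear of Cre(−) in KI replicate 3 too. Cdk2, the partner of cyclin E, was 0.62 higher (adjusted p = 0.000214). Cyclin E1, which carries cells into S phase, was scarce: Ccne1 had 0.137, 0.107, 0.463 and 0.253 CPM in Cre(−) and 1.38, 2.53 and 0.285 CPM in KI. KI replicate 3 lay inside the Cre(−) range, and the difference was 2.54 (SE 0.62, adjusted p = 0.0022), or 1.79 without KI replicate 2. Ccne2, its paralogue, was 0.60 higher, short of the threshold (adjusted p = 0.0624), and passed it without KI replicate 1 (0.73, adjusted p = 0.0463).

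Among the 4 transcription factors, 3 rose (median 0.80). Foxm1, which switches on mitotic genes (ENSMUSG00000001517.14, chromosome 6, 128362967 to 128376146), had 2.67, 1.12, 2.25 and 2.34 CPM in Cre(−) and 10.7, 9.69 and 5.93 CPM in KI. All KI libraries were above all Cre(−) libraries, and the difference was 2.07 (SE 0.24, adjusted p = 2.64e-06). E2f1, an activator of S phase genes, had 3.57, 2.57, 2.78 and 2.15 CPM in Cre(−) and 6.61, 5.49 and 2.80 CPM in KI. Its groups overlapped through KI replicate 3, the difference was 0.85 (SE 0.25, adjusted p = 0.00865), and it no longer passed without KI replicate 1 (0.59). E2f2, a related activator, was 0.75 higher (SE 0.27, adjusted p = 0.0241) and did not pass without KI replicate 1 (0.75) or without KI replicate 2 (0.49). Its KI replicate 3, at 2.57 CPM, was just below the highest Cre(−) library at 2.58 CPM. Mybl2 had 4.53, 2.78, 2.78 and 2.27 CPM in Cre(−) and 3.39, 3.72 and 2.62 CPM in KI, which overlapped fully (difference 0.07).

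Of the 11 replication and nucleotide genes, 8 rose and 1 fell, with a smaller median of 0.51. Mcm2, a subunit of the helicase that opens DNA at origins, had 14.1, 12.9, 14.1 and 14.5 CPM in Cre(−) and 34.2, 25.7 and 17.7 CPM in KI, a difference of 0.90 (SE 0.16, adjusted p = 0.000174). All 3 KI libraries were above Cre(−). The other helicase subunits differed by 1.49 (Mcm3), 0.89 (Mcm4), 1.05 (Mcm5), 0.16 (Mcm6) and 0.51 (Mcm7). For Mcm5 KI replicate 3 lay inside the Cre(−) range. Mcm6 did not pass (adjusted p = 0.214), and without KI replicate 3 it did (0.29, adjusted p = 0.026). Pcna, the sliding clamp of DNA polymerase, had 33.8, 36.4, 34.1 and 33.0 CPM in Cre(−) and 49.3, 48.8 and 44.6 CPM in KI. That is a small difference with little spread, 0.47 (SE 0.06, adjusted p = 8.46e-06, 3 of 3 libraries).

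The ribonucleotide reductase subunits Rrm1 and Rrm2 were 0.51 and 1.10 higher, and for Rrm2 KI replicate 3 lay inside the Cre(−) range. Tk1, the thymidine kinase of S phase, differed by −0.06 with overlap. Tyms, the thymidylate synthase (ENSMUSG00000025747.12, chromosome 5, 30058202 to 30073617), had 23.7, 26.0, 17.9 and 17.9 CPM in Cre(−) and 16.1, 15.8 and 14.0 CPM in KI. All KI libraries were lower, the Cre(−) mice with HIF1a f/f (replicates 1 and 2) were the highest, and Tyms fell by 0.48 (SE 0.13, adjusted p = 0.0048). It no longer passed with only the Cre(−) mice without a floxed allele (−0.22). Scaling bears on this gene: without TMM the median of all genes in KI over Cre(−) is 0.37 and not 0.03, Tyms is then −0.14 and not past the threshold, and Ccnd3 is −0.59 and past it. On log2 TPM Tyms turned to 0.09, so its direction depends on the scale.

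The 4 members of the Cdk1 and cyclin role all rose (median 2.66, the largest of the 7 roles). Cdk1, the kinase that starts mitosis (ENSMUSG00000019942.13, chromosome 10, 69335146 to 69352938), had 0.891, 0.750, 0.596 and 0.253 CPM in Cre(−) and 6.21, 5.22 and 2.74 CPM in KI, a difference of 2.91 (SE 0.32, adjusted p = 1.4e-06). KI replicate 3 again was lowest and still above every Cre(−) library. Ccnb1, the cyclin B1 that activates Cdk1 (ENSMUSG00000041431.16, chromosome 13, 100778650 to 100786570), had 0.480, 0.428, 0.463 and 0.442 CPM in Cre(−) and 4.31, 2.80 and 1.65 CPM in KI, a difference of 2.67 (SE 0.33, adjusted p = 4.67e-06). Ccnb2 had 0.548, 0.428, 0.861 and 0.505 CPM in Cre(−) and 5.40, 3.66 and 1.88 CPM in KI, a difference of 2.64 (SE 0.33, adjusted p = 5.52e-06). In all 3 genes KI replicate 3 was the lowest of KI and no library overlapped Cre(−). Ccna2, cyclin A2 of S phase and G2, was 1.40 higher.

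Of the 8 mitotic kinases, checkpoint and anaphase genes, 7 rose (median 1.51). Bub1, a kinase of the spindle checkpoint (ENSMUSG00000027379.13, chromosome 2, 127801122 to 127831865), had 0.343, 0.482, 0.331 and 0.0631 CPM in Cre(−) and 3.33, 2.15 and 0.571 CPM in KI, a difference of 2.69 (SE 0.52, adjusted p = 0.000349). Plk1, a kinase of mitotic entry and exit, had 1.78, 0.91, 1.99 and 2.21 CPM in Cre(−) and 5.00, 4.79 and 2.23 CPM in KI, a difference of 1.22 (SE 0.28, adjusted p = 0.00141). In both genes KI replicate 3 was only just above the highest Cre(−) library. Aurkb and Birc5, partners in the chromosomal passenger complex, were 2.30 and 1.82 higher. Cdc20, which activates the anaphase-promoting complex, was 1.72 higher, Aurka 1.3 with overlap, and Bub1b 1.04. Ube2c, the ubiquitin enzyme of that complex, had 5.28, 3.37, 4.10 and 4.74 CPM in Cre(−) and 6.55, 4.36 and 2.45 CPM in KI, with no difference past the threshold (0.03).

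All 8 kinetochore, spindle and cytokinesis genes rose (median 1.65). Cenpe, the kinesin that carries chromosomes to the spindle equator (ENSMUSG00000045328.11, chromosome 3, 135212537 to 135273611), had 1.65, 0.857, 1.26 and 1.45 CPM in Cre(−) and 16.8, 17.3 and 11.2 CPM in KI. It had the largest difference of the 45 members, 3.55 (SE 0.27, adjusted p = 3.37e-08) or 11.7-fold, and KI replicate 3 was far above Cre(−). Tpx2, which nucleates spindle microtubules, was 2.53 higher and Cenpf, an outer kinetochore protein, 1.96. Prc1 and Nusap1, which bundle spindle microtubules, were 1.75 and 1.33 higher. Kif11, the motor that separates the spindle poles, was 1.55 higher, Kif20a, a cytokinesis kinesin, 1.28, and Cenpa, the centromeric histone, 0.90. For Kif11 and Kif20a KI replicate 3 lay inside the Cre(−) range.

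**Figure D4:**
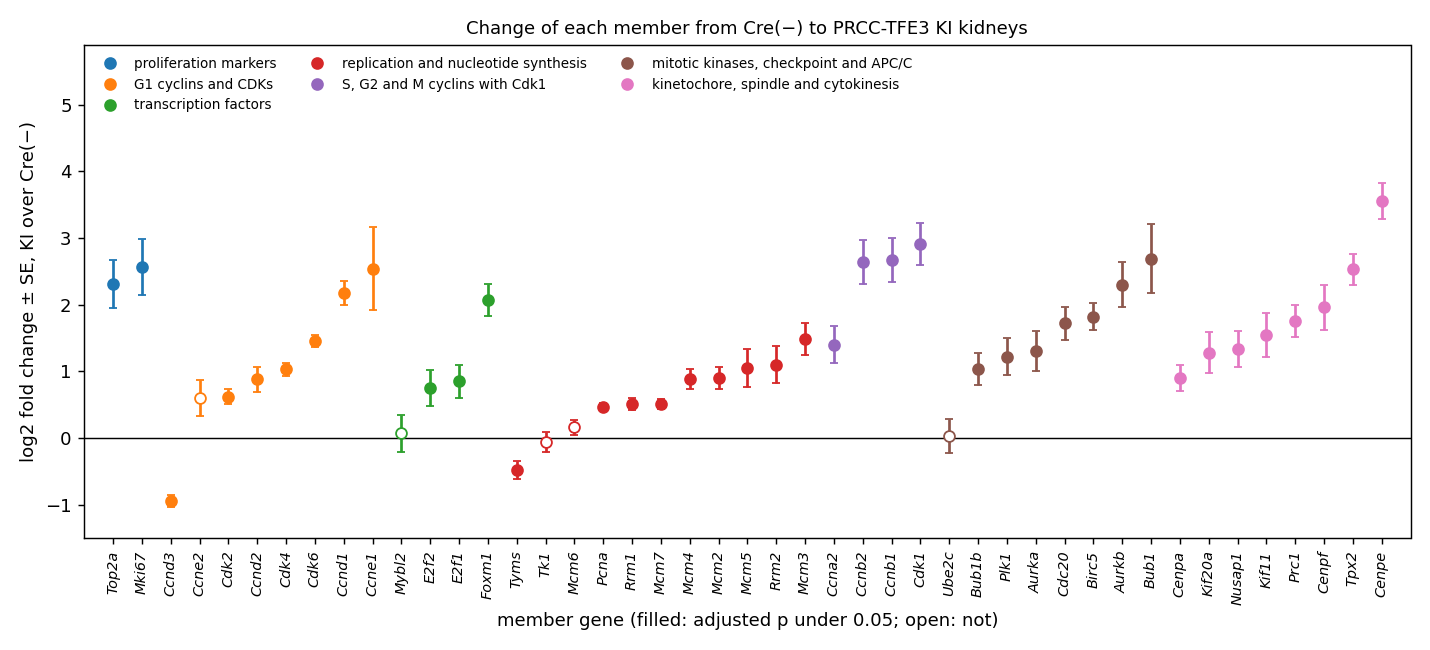
Log2 difference of each member between KI and Cre(−) with its SE, by role, filled where the adjusted p was under 0.05. Values run from −0.94 (Ccnd3) to 3.55 (Cenpe), and the open points are Ccne2, Mybl2, Mcm6, Tk1 and Ube2c.

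Other genes of the cycle, taken from lists of named genes, moved as follows. Of 52 other mitosis genes 45 were higher in KI and 4 lower (median 1.60), with Cdkn3 the largest at 5.14 (35.4-fold, adjusted p = 1.6e-08), then Gtse1 at 3.22, Kif18b at 3.17 and Melk at 3.11. Of 50 other S phase genes 32 were higher and 3 lower (median 0.64), led by Chaf1b, a chromatin assembly subunit, at 5.98 (adjusted p = 1.3e-09), then Brca1 at 3.16, Ung at 2.94 and Uhrf1 at 2.58. Of 10 CDK inhibitors and pocket proteins, which restrain the cycle, 5 were higher and 3 lower (median 0.36). In that list Cdkn2a was 6.42 higher (adjusted p = 4.61e-07), Cdkn2b 3.35 and Cdkn1a 1.85, and Cdkn1c differed by −1.56. Of 14 other E2F and DREAM factors 8 were higher and 2 lower (median 0.39), with E2f8 at 2.75, Lin52 at −0.89, Tfdp2 at −0.73 and E2f3 at 0.67. Of 17 G1 and G2 partners 7 were higher and 1 lower (median 0.15), with Ccnf at 2.57, Myc at 1.79, Pkmyt1 at 1.34 and Mycn at 0.81.

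Marker transcripts of the cell types of the tissue differed at the same time. Of the marker lists, 8 of 8 proximal tubule markers were lower in KI (sum 5860 to 6460 TPM in Cre(−) and 594 to 724 TPM in KI), as were 5 of 5 markers of thick ascending limb and distal tubule. Of 8 collecting duct markers 1 was higher and 6 lower, 4 of 5 podocyte markers and 6 of 8 endothelial markers were lower (endothelial sum 145 to 223 TPM in Cre(−) and 175 to 182 TPM in KI, which overlap), and 7 of 7 injured tubule markers were higher (1320 to 1630 TPM in Cre(−) and 4860 to 6290 TPM in KI, Spp1 the most abundant). Macrophage markers were higher for 9 of 10 (139 to 183 TPM in Cre(−) and 2360 to 2680 TPM in KI, Cd68 the most abundant), fibroblast markers for 8 of 9 (127 to 165 TPM in Cre(−) and 421 to 505 TPM in KI), B and plasma cell markers for 6 of 10, T cell markers for 4 of 10 and adipocyte markers for 4 of 7. Of 4 erythroid markers tested, 0 passed by edgeR and 2 had an unadjusted p under 0.05 (median −1.77). The KI libraries were uneven in both lists, at 144, 3630 and 287 TPM for adipocyte markers and 60.4, 80.7 and 1090 TPM for erythroid markers. Which cells carry the members' transcripts, and the part of these shifts in the members' values, was not tested.

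Promoter sequences are shown for Mki67, Top2a, Cdk1 and Cdc20, members that rose in the proliferation, Cdk1 and mitotic checkpoint roles. They are also shown for a pair that carries the core letters of the M-box, a longer element bound by the family of TFE3. RefSeq windows (GRCm38.p6, 250 bases before to 50 after a start) matched 36 of 45 members, in 40 windows, and letters were searched on both strands. The CHR element of mitotic genes (TTTGAA) was in windows of 15 members (41.7%, against 20.2% of all genes with a window), by role in 2 of 2 proliferation markers, 5 of 8 kinase and checkpoint genes, 4 of 8 kinetochore and spindle genes, 2 of 4 in the Cdk1 role, 1 of 4 transcription factors, 1 of 11 replication genes and 0 of 8 G1 genes, where the role totals include members without a window. An E2F core (TTCCCGC or TTGGCGC or TTCGCGC) was in 10 (27.8% against 9.2%) and CCAAT in 27 (75% against 41.1%). The M-box core (TCACGTG or TCACATG, which lack the last letter of the full element and cover only some of its forms) was in 3 (Cdk4, Tyms and Mcm7, 8.33% against 8.61%), the E-box CACGTG in 3 (8.33% against 8.09%), and the HIF core ACGTG in 14 (38.9% against 21.8%). TCACGTG contains CACGTG, which contains ACGTG, so these counts share matches, and a match is a description of letters only. Of the upstream stretches obtained in the proliferation, Cdk1 and checkpoint roles, only those of Mki67, Top2a, Cdk1 and Cdc20 hold CHR letters and are shown. Those of Aurka, Birc5, Bub1, Bub1b, Ccnb1, Ccnb2 and Ube2c hold none and are not shown. In the following 120 bases upstream of each gene, written 5′ to 3′ on the strand of the gene, capitals mark CHR, E2F core, CCAAT and M-box core letters in either orientation.
Mki67 (chr7:135716380-135716499, minus strand): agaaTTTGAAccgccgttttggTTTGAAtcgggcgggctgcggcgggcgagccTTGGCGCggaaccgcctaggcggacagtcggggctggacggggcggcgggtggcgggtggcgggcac
Top2a (chr11:99024190-99024309, minus strand): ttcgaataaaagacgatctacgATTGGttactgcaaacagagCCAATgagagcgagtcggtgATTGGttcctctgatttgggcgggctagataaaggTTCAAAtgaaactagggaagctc
Cdk1 (chr10:69352939-69353058, minus strand): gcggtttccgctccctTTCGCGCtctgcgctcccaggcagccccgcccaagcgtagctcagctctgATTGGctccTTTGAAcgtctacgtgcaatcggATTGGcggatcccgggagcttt
Cdc20 (chr4:118437353-118437472, minus strand): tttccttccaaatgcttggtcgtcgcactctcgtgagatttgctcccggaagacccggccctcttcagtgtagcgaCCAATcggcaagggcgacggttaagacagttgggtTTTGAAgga
Cdk4 (chr10:127063414-127063533, plus strand): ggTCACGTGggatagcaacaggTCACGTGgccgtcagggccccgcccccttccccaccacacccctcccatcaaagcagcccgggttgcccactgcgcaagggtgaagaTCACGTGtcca
Tyms (chr5:30073626-30073745, minus strand): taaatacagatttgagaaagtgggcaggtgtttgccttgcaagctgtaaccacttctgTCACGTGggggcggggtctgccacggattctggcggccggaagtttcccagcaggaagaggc

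The Mki67 and Cdk1 stretches hold both CHR and E2F core letters, Top2a and Cdc20 hold CHR with CCAAT, and Cdk4 and Tyms hold M-box core letters, which are in the former at several places. Of the 3 members with these letters, Cdk4 (1.03) and Mcm7 (0.51) were higher and Tyms (−0.48) lower in KI.

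The comparison of KI/Hif1α KO with KI asks what deleting Hif1a adds once the fusion is on. Ccnd1 was the only member to pass the test. It had 696, 946, 759 and 855 CPM in KI/Hif1α KO, all 4 below the 3 KI libraries (1670, 1590 and 1010) and above all Cre(−) libraries (285 to 374). Ccnd1 fell by 0.81 (SE 0.18, adjusted p = 0.0214, 4 of 4 libraries).

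Of the 45 members, 0 were higher and 1 lower by edgeR, where 2.57% of all tested genes were higher and 2.86% lower, and 8 of 45 members had an unadjusted p under 0.05, as did 22.1% of all tested genes. DESeq2 and limma also called 0 higher. The median over members was 0.21 (log2, from −0.81 to 0.72), and 35 of 45 differences were above 0. That median rests on single KI libraries, at −0.02 without KI replicate 3 and 0.42 without KI replicate 1. The role medians ran from −0.04 for the G1 genes to 0.45 for the Cdk1 role.

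Mki67 had 43.4, 39.7, 57.2 and 51.7 CPM in KI/Hif1α KO, a difference of 0.39 (adjusted p = 0.613), and Top2a had 20.0, 20.1, 21.6 and 22.8 CPM, a difference of 0.37 (adjusted p = 0.561). These libraries were close to KI replicates 1 and 2 and above replicate 3, and without replicate 3 the differences turned to −0.06 and −0.02. Cdk1 had 7.65, 6.23, 6.13 and 6.40 CPM, a difference of 0.48 (adjusted p = 0.33), Ccnb1 differed by 0.42 (adjusted p = 0.422) and Plk1 by 0.51 (adjusted p = 0.288). E2f1 and Foxm1 each differed by 0.17, and by −0.12 and −0.04 without KI replicate 3. Mcm2 differed by −0.08, or 0.17 without KI replicate 1, and Pcna by 0.05. Ccnd3 was 0.25 higher (adjusted p = 0.0953) and Cdk4 −0.29 (adjusted p = 0.0971), each short of the threshold and named here after their values were seen.

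The Ccnd1 call rests on single libraries. Without KI replicate 1 the difference was −0.67 and without KI replicate 2 it was −0.72, neither past the threshold, while without KI replicate 3 Ccnd1 fell by 1.00 (adjusted p = 0.0124). It also missed the threshold without KI/Hif1α KO replicate 1 (−0.74) or 3 (−0.78), and in a fit of these groups alone (−0.80) or with a replicate block (−0.79). In the wider lists, Kif23, a cytokinesis kinesin, was 0.97 higher (adjusted p = 0.0101) and the only one of 52 other mitosis genes to pass. Of 50 other S phase genes 2 were lower, Chaf1b by −1.10 (adjusted p = 0.0181) and Ung by −0.87 (adjusted p = 0.0165). Wee1, which holds Cdk1 inactive, was 0.78 higher (adjusted p = 0.0178) and the only one of 17 G1 and G2 partners to pass. Tissue markers moved here too: 4 of 8 proximal tubule markers were higher than in KI (sum 963 to 1770 against 594 to 724 TPM), as were 2 of 5 of thick ascending limb and distal tubule and 3 of 9 fibroblast markers. Of 10 macrophage markers 2 were higher and 1 lower, and 8 were above 0 (median 0.26, 7 at an unadjusted p under 0.05). Their sum, in which Cd68 is the most abundant gene, was nevertheless below KI (1780 to 1910 against 2360 to 2680 TPM). T cell markers were above 0 for 10 of 10 (median 0.78, 2 at an unadjusted p under 0.05). Adipocyte markers were above 0 for 0 of 7 (−2.49, 3) and erythroid markers for 0 of 4 (−1.67, 1), and edgeR called 0 in these lists. Single KI libraries weigh on both: KI sums were 144, 3630 and 287 TPM for adipocyte markers and 60.4, 80.7 and 1090 TPM for erythroid markers. In KI/Hif1α KO the sums were 137 to 695 TPM and 64.9 to 270 TPM. The part of the tissue lists in the members' values was not tested. In the CDK inhibitor list and in the E2F and DREAM list 0 passed by edgeR, with 2 and 3 genes at an unadjusted p under 0.05.

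The comparison of KI/Hif2α KO with KI asks the same of Epas1. Here 1 of 45 members passed by edgeR. Bub1b, the checkpoint protein BubR1 (ENSMUSG00000040084.9, chromosome 2, 118598211 to 118641591), had 4.08, 4.90 and 2.28 CPM in KI and 8.38, 7.57 and 7.34 CPM in KI/Hif2α KO. The groups were well apart, and Bub1b rose by 1.05 (SE 0.24, adjusted p = 0.0485, 3 of 3 libraries).

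It was 1 of 45 members higher by edgeR, with 0 lower, where 0.741% of all tested genes were higher and 0.647% lower. At an unadjusted p under 0.05 there were 24 of 45 members and 19.2% of all tested genes, and DESeq2 and limma also called 0 lower. The median over members was 0.61 (from −0.42 to 1.05), 41 of 45 were above 0, and the median of all tested genes was −0.007. Without KI replicate 3 the median over members was 0.27. In 18 members every KI/Hif2α KO library was above every KI library, as in 9.52% of tested genes. Role medians were 0.85 for the proliferation markers, 0.75 for the Cdk1 role, 0.73 for the kinase and checkpoint genes, 0.71 for the kinetochore and spindle genes, 0.48 for the transcription factors, 0.22 for the replication genes and 0.02 for the G1 genes.

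Mki67 had 86.5, 49.8 and 67.3 CPM in KI/Hif2α KO, a difference of 0.88 (adjusted p = 0.257), and Top2a had 35.5, 22.8 and 27.8 CPM, a difference of 0.81 (adjusted p = 0.227). Replicate 2 of KI/Hif2α KO overlapped KI for Mki67, and for Top2a it was above all KI libraries by a small margin. Cdk1 had 8.38, 7.44 and 8.55 CPM, a difference of 0.78 (adjusted p = 0.166), Ccnb1 differed by 0.66 (adjusted p = 0.248) and Plk1 by 0.74 (adjusted p = 0.176). Foxm1 differed by 0.50 (adjusted p = 0.27), E2f1 by 0.46 (adjusted p = 0.35), Mcm2 by 0.31 (adjusted p = 0.325) and Pcna by 0.12 (adjusted p = 0.346). Without KI replicate 3 these differences were 0.44 for Mki67, 0.42 for Top2a, 0.51 for Cdk1, 0.38 for Ccnb1, 0.45 for Plk1, 0.29 for Foxm1, 0.18 for E2f1, 0.10 for Mcm2 and 0.07 for Pcna. Ccnd1 had 918, 1060 and 1220 CPM, overlapping KI through replicate 3 of KI, a difference of −0.42 (adjusted p = 0.257).

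The count rests on which KI libraries are used: without KI replicate 1 it was 9 members, Mcm2 at 0.57 (adjusted p = 0.0401) among them, and without KI replicate 3 it was 0, with Bub1b at 0.79. All tested genes higher moved likewise, from 126 to 462 without KI replicate 1 and to 7 without KI replicate 3. Bub1b also missed the threshold without KI/Hif2α KO replicate 1 (0.99), 2 (1.06) or 3 (1.08). It was not called either with no filter, in a fit of these groups alone, with a replicate block or by limma on TPM plus 0.1. In the wider lists E2f8, a repressing E2F, was 1.12 higher (adjusted p = 0.0423), 1 of 14 other E2F and DREAM factors, and 0 passed by edgeR among the other mitosis genes (median 0.54), the other S phase genes, the CDK inhibitors and the G1 and G2 partners. At an unadjusted p under 0.05 those lists had 21, 12, 4 and 2 genes. Of the tissue markers, 3 of 9 for fibroblasts and 1 of 5 for thick ascending limb and distal tubule were higher than in KI. Proximal tubule markers summed to 770 to 1520 TPM, above KI at 594 to 724 TPM. Of these 8 markers 0 were called by edgeR and 4 had an unadjusted p under 0.05. Adipocyte markers were above 0 for 0 of 7 (median −1.96) and erythroid markers for 0 of 4 (−1.65). Single KI libraries weigh on both, with 3630 TPM of adipocyte markers in KI replicate 2 and 1090 TPM of erythroid markers in KI replicate 3. T cell markers summed to 98.5, 42.6 and 28.8 TPM (KI 20.8, 42.8 and 9.31), with a median difference of 1.24, 0 of 10 called by edgeR and 8 of 10 at an unadjusted p under 0.05. B and plasma cell markers summed to 146 to 359 TPM (KI 34.4 to 190), and the part of these lists in the members' values was not tested.

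The comparison of KI/DKO with KI joins both deletions. Ccnd1 was lower, as it was where Hif1a alone was deleted, and Bub1b and E2f2 were higher. Ccnd1 had 965, 634 and 728 CPM in KI/DKO, all below KI, and fell by 0.88 (SE 0.20, adjusted p = 0.0115, 3 of 3 libraries). Bub1b had 7.36, 8.11 and 6.00 CPM, all above KI, and rose by 0.93 (SE 0.24, adjusted p = 0.0226, 3 of 3 libraries). E2f2 (ENSMUSG00000018983.9, chromosome 4, 136172394 to 136196057) had 3.91, 5.17 and 2.57 CPM in KI and 9.06, 8.27 and 6.00 CPM in KI/DKO, without overlap, and rose by 1.00 (SE 0.28, adjusted p = 0.0289, 3 of 3 libraries).

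These 2 higher and 1 lower of 45 members compare with 6.53% of all tested genes higher and 6.19% lower. At an unadjusted p under 0.05 there were 6 of 45 members and 29.1% of all tested genes. The median over members was 0.25 (from −0.88 to 1.00), and 38 of 45 were above 0. Without KI replicate 3 that median was 0.03, without KI replicate 1 it was 0.47 and without KI replicate 2 it was 0.38. Mki67 had 61.9, 67.3 and 45.2 CPM, a difference of 0.66 (adjusted p = 0.31), Top2a differed by 0.56 (adjusted p = 0.312), Cdk1 by 0.60 (adjusted p = 0.19), Ccnb1 by 0.54 and Plk1 by 0.35. Without KI replicate 3 these were 0.22, 0.17, 0.32, 0.26 and 0.06 in the same order. E2f1 differed by 0.22, Foxm1 by 0.01, Mcm2 by −0.02 and Pcna by 0.03. The last 4 lie too near 0 to hold a direction: without KI replicate 3, E2f1 turned to −0.06, Foxm1 to −0.21 and Pcna to −0.02, and Mcm2 was 0.24 without KI replicate 1 and 0.08 without TMM.

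Without KI replicate 3 the KI/DKO counts were 0 higher and 1 lower, with Ccnd1 at −1.07 (adjusted p = 0.0096), E2f2 at 0.78 and Bub1b at 0.67. Ccnd1 missed the threshold without KI/DKO replicate 2 (−0.75) or 3 (−0.83), Bub1b without KI/DKO replicate 2 (0.83), and E2f2 without KI replicate 1 (1.00) or KI/DKO replicate 1 (0.88) or 2 (0.95). In the wider lists Chaf1b differed by −1.41 (adjusted p = 0.00489) and Ung by −1.02 (adjusted p = 0.00594), 2 of 50 other S phase genes. The inhibitors Cdkn1a at −1.02 (adjusted p = 0.0156) and Cdkn1b at −0.53 (adjusted p = 0.0417) were lower, 2 of 10, as was Cdc25b, a phosphatase that activates Cdk1, at −0.42 (adjusted p = 0.0406), 1 of 52. Tfdp2 was 0.30 higher (adjusted p = 0.0281), 1 of 14, and of the G1 and G2 partners 0 of 17 passed by edgeR, with 1 at an unadjusted p under 0.05. Tissue markers higher than in KI were 5 of 8 for proximal tubule (sum 1070 to 1750 against 594 to 724 TPM), 3 of 5 for thick ascending limb and distal tubule, 2 of 8 for collecting duct, 4 of 9 for fibroblasts, 3 of 10 for T cells (sum 43.8 to 84.9 against 9.31 to 42.8 TPM) and 1 of 10 for B and plasma cells. Of 10 macrophage markers 1 was higher and 1 lower, and 9 were above 0 (median 0.18, 2 at an unadjusted p under 0.05). Their sum, with Cd68 the most abundant gene, was nevertheless below KI (1560 to 2120 against 2360 to 2680 TPM). Of 7 injured tubule markers 2 were lower. Adipocyte markers were above 0 for 0 of 7 (median −2.58) and erythroid markers for 0 of 4 (−1.88), with 0 calls by edgeR. Again single KI libraries weigh on both (3630 TPM of adipocyte markers in KI replicate 2, 1090 TPM of erythroid markers in KI replicate 3). The part of the tissue lists in the members' values was not tested.

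**Figure D5:**
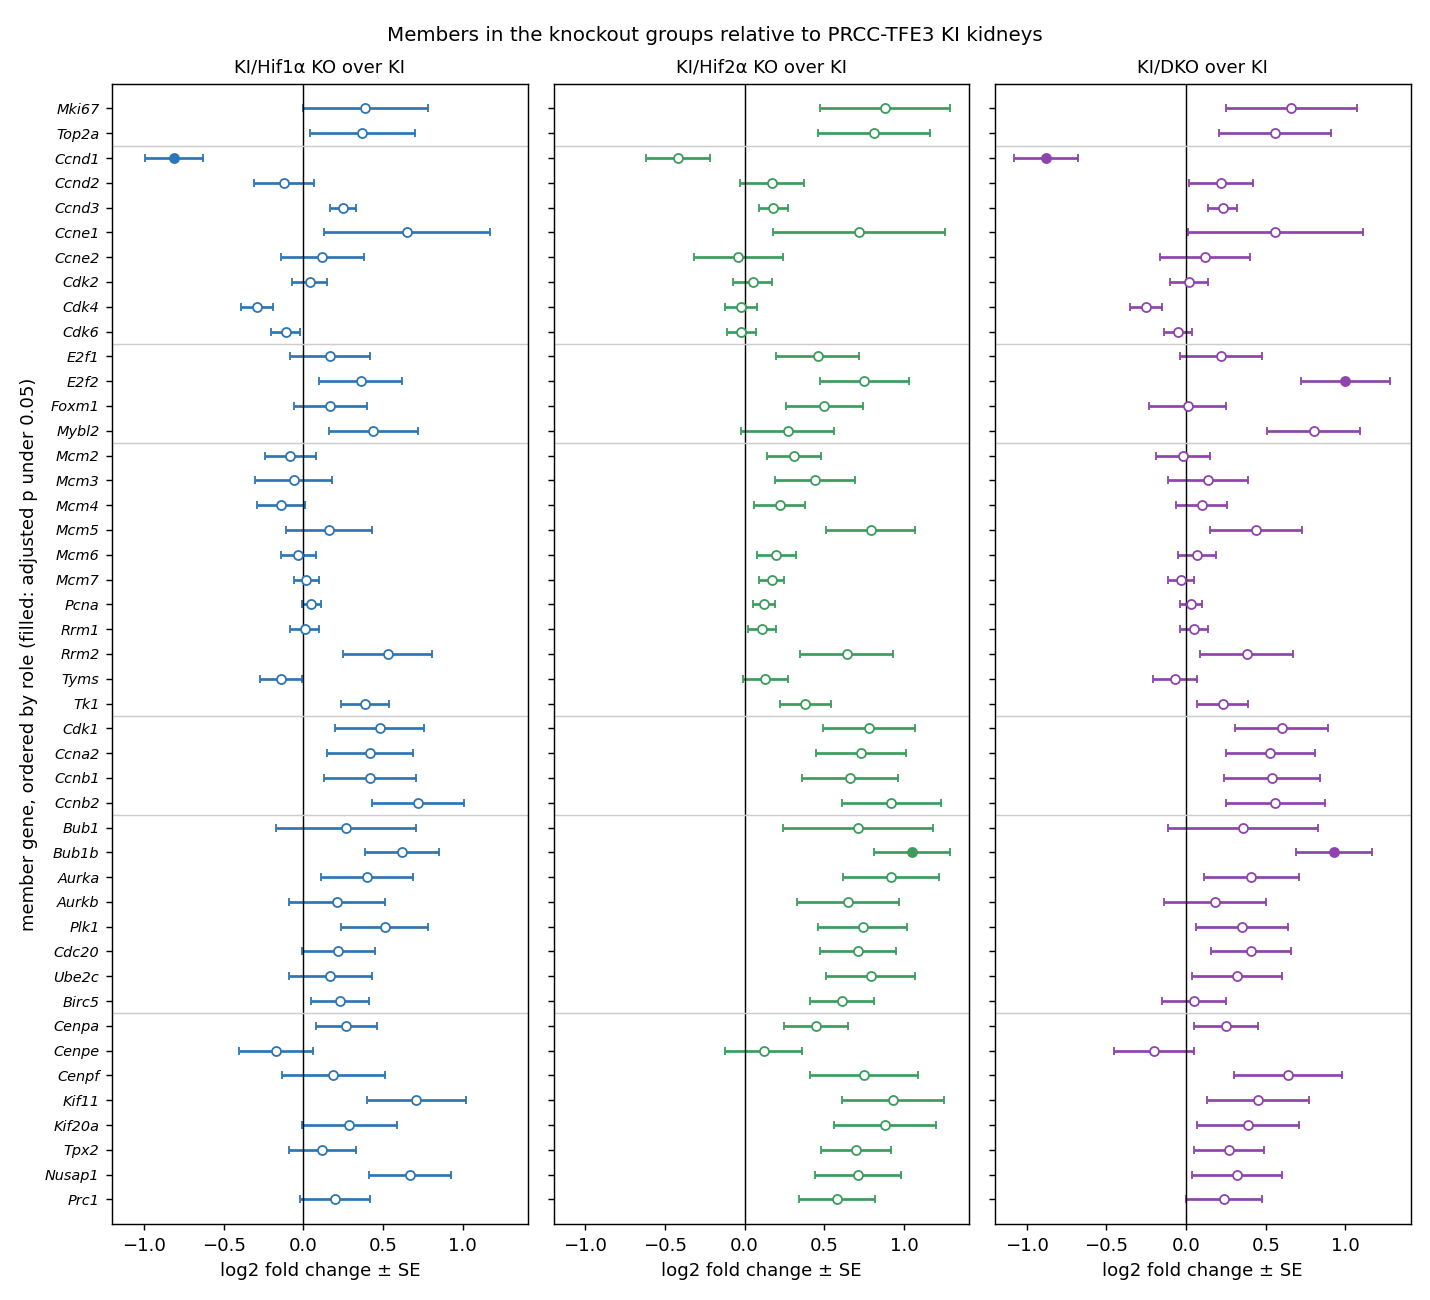
Log2 difference of each of the 45 members from KI, with its SE, in KI/Hif1α KO, KI/Hif2α KO and KI/DKO, which share the 3 KI libraries. Ccnd1 is the lowest in KI/Hif1α KO (−0.81) and KI/DKO (−0.88), and the medians are 0.21, 0.61 and 0.25, or −0.02, 0.27 and 0.03 without KI replicate 3.

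Since the 3 deletion groups are set against the same KI libraries, their differences are not independent of each other. KI/Hif1α KO was therefore also compared with KI/Hif2α KO directly. This sets deletion of Hif1a against deletion of Epas1. By edgeR 0 of 45 members were higher and 0 lower, where 0.329% of tested genes were higher and 0.0999% lower. DESeq2 and limma also called 0, and 9 of 45 members had an unadjusted p under 0.05, as did 14.9% of all tested genes. The median was −0.29 (from −0.62 to 0.17) and 4 of 45 were above 0. In 16 members every KI/Hif1α KO library was below every KI/Hif2α KO library, as in 6.75% of tested genes.

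The member with the lowest p was Tpx2, with 9.02, 12.0, 10.7 and 10.5 CPM in KI/Hif1α KO and 17.2, 14.7 and 15.4 CPM in KI/Hif2α KO. Its groups did not overlap, and the difference was −0.58 (adjusted p = 0.185). The helicase subunits Mcm5, Mcm3, Mcm2 and Mcm4 differed by −0.62, −0.50, −0.40 and −0.36, Ube2c by −0.62, Mki67 by −0.50, Ccnd1 by −0.39 (adjusted p = 0.331) and Cdk4 by −0.27 (adjusted p = 0.197). These genes were named after their values were seen. In the 5 wider lists of cycle genes 0 passed by edgeR, with 6 mitosis, 6 S phase, 2 inhibitor, 1 E2F or DREAM and 5 partner genes at an unadjusted p under 0.05. Among tissue markers, which had 0 calls by edgeR, T cell markers were above 0 for 0 of 10 (median −0.47, 1 at an unadjusted p under 0.05), B and plasma cell markers for 1 of 10 (−0.32, 0) and macrophage markers for 2 of 10 (−0.14, 2). Proximal tubule markers were above 0 for 8 of 8 (0.29, 1) and endothelial markers for 7 of 8 (0.23, 2). Their part in the members' values was not tested.

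Whether deleting Hif1a does the same with and without Epas1 was tested as an interaction, the difference KI/DKO minus KI/Hif2α KO less the difference KI/Hif1α KO minus KI. By edgeR 0 of 45 members passed, as did 0% of all tested genes, with 8 of 45 members and 5.95% of all tested genes at an unadjusted p under 0.05. By DESeq2 and by limma 0 of 45 members passed too, where of all tested genes DESeq2 called 10 higher and 21 lower, and limma and edgeR 0. The median was −0.52 (from −1.19 to 0.35), and 7 of 45 were above 0, with a median of −0.21 without KI replicate 3. Birc5 had the lowest p (−0.79, adjusted p = 0.731), Kif11 the lowest value (−1.19, adjusted p = 0.78), and Ccnd1 the highest (0.35, adjusted p = 0.949). Birc5 and Kif11 were named after their values were seen. In the 5 wider lists 0 passed by edgeR, with 7, 2, 0, 1 and 1 genes at an unadjusted p under 0.05 in the same order of lists. Tissue markers had 0 calls by edgeR too, with medians of −0.89 for thick ascending limb and distal tubule (0 of 5 above 0, 2 at an unadjusted p under 0.05), −0.75 for proximal tubule (2 of 8, 2) and −0.51 for T cells (0 of 10, 0). Those for macrophages had −0.47 (2 of 10, 5) and those for fibroblasts −0.44 (3 of 9, 3). Adipocyte markers had a median of 2.88 (7 of 7 above 0, 0) and erythroid markers 1.49 (4 of 4, 0). KI enters this difference, with 3630 TPM of adipocyte markers in KI replicate 2 and 1090 TPM of erythroid markers in KI replicate 3. The part of the tissue lists in the members' values was not tested.

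Against Cre(−), each deletion group kept most division genes high. In KI/Hif1α KO 40 members were higher and 2 lower, where 31.9% of tested genes were higher and 30.1% lower, with a median over members of 1.56. In KI/Hif2α KO 40 were higher and 2 lower, where 32% of tested genes were higher and 29.9% lower, with a median of 1.94. In KI/DKO 40 were higher and 2 lower, where 30.4% of tested genes were higher and 27.9% lower, with a median of 1.63. The lower pair was Ccnd3 and Tyms in each group. The members that did not pass were Mybl2, Mcm6 and Ube2c in KI/Hif1α KO, Ccne2, Mybl2 and Tk1 in KI/Hif2α KO, and Mcm6, Tk1 and Ube2c in KI/DKO. These comparisons share the 4 Cre(−) libraries. Tissue markers differed at the same time. In each deletion group 8 of 8 proximal tubule and 4 of 4 erythroid markers were lower, and 7 of 7 injured tubule markers were higher. In KI/Hif1α KO, KI/Hif2α KO and KI/DKO 8, 9 and 9 of 10 macrophage markers were higher. The counts were 7, 9 and 9 of 10 for T cells and for B and plasma cells, and 0 of 7 for adipocytes. The part of these lists in the members' values was not tested.

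Over the 13 Cre-positive libraries together, 30 of 45 members were above every Cre(−) library in every one of them, as were 20.1% of tested genes, and 2 were below, as were 20.6%. Cdk1, at 0.253 to 0.891 CPM in Cre(−), had 7.65, 6.23, 6.13 and 6.40 CPM in KI/Hif1α KO, 8.38, 7.44 and 8.55 in KI/Hif2α KO, and 8.62, 7.43 and 5.42 in KI/DKO. Every deletion library was above Cre(−) by a wide margin, and the differences were 3.39 (adjusted p = 2.12e-07), 3.69 (adjusted p = 1.44e-07) and 3.51 (adjusted p = 3.23e-07), with every library higher. Cenpe had 8.90, 16.0, 13.3 and 15.5 CPM in KI/Hif1α KO, 17.9, 13.1 and 18.5 in KI/Hif2α KO, and 16.4, 13.1 and 10.2 in KI/DKO. It was again far above Cre(−), by 3.38, 3.67 and 3.35.

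Mki67 was 2.95, 3.45 and 3.22 higher in KI/Hif1α KO, KI/Hif2α KO and KI/DKO (adjusted p = 1.48e-05, 4.89e-06 and 1.13e-05). In the same order Top2a was 2.68, 3.12 and 2.88 higher, Ccnb1 3.10, 3.34 and 3.22, Ccnb2 3.35, 3.55 and 3.20, Bub1 2.96, 3.40 and 3.04, and Ccne1 3.19, 3.26 and 3.10. Foxm1 was 2.25, 2.58 and 2.08 higher, Plk1 1.73, 1.96 and 1.58, E2f1 1.01, 1.31 and 1.07, Mcm2 0.81, 1.21 and 0.88, and Pcna 0.52, 0.59 and 0.50. In each of these genes KI/Hif2α KO had the highest difference by edgeR, and the direct comparison with KI/Hif1α KO found no member past the threshold. By limma on log2 of TPM plus 1, Ccnb1 was 1.83, 1.82 and 2.02 higher in the same order. KI/Hif2α KO and KI/DKO were not compared directly. Ccnd1 was 1.37, 1.76 and 1.3 higher (adjusted p = 5.64e-06, 8.63e-07 and 1.98e-05), less than in KI (2.18), and in KI/Hif2α KO the gap to KI did not pass the test.

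Ccnd3 had 55.3, 46.7, 51.4 and 50.1 CPM in KI/Hif1α KO, 48.9, 46.1 and 50.8 in KI/Hif2α KO, and 49.7, 55.3 and 45.0 in KI/DKO. Every library was below Cre(−), by −0.68, −0.75 and −0.71 (adjusted p = 1.96e-06, 1.93e-06 and 4.2e-06), and by limma on log2 TPM the values were −0.22, −0.25 and −0.07, none past the threshold. Tyms had 15.2, 14.3, 12.1 and 14.0 CPM in KI/Hif1α KO, 17.2, 16.1 and 16.9 in KI/Hif2α KO, and 14.6, 15.8 and 13.2 in KI/DKO. All were below the lowest Cre(−) library, at 17.9 CPM, and the differences were −0.62, −0.36 and −0.56 (adjusted p = 0.000346, 0.0264 and 0.00185). In KI/Hif2α KO this call ended without Cre(−) replicate 1 (−0.31) or 2 (−0.23) or KI/Hif2α KO replicate 2 (−0.33) or 3 (−0.36). Tyms turned positive without TMM in KI/Hif2α KO (0.08) and on log2 TPM in KI/Hif2α KO (0.20) and KI/DKO (0.18). The Tyms call was also lost without TMM in KI/Hif1α KO (−0.26) and KI/DKO (−0.1), and on log2 TPM in KI/Hif1α KO (−0.12).

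The wider lists of mitosis and S phase genes gave counts against Cre(−) near those of KI. Of 52 other mitosis genes 45, 47 and 46 were higher and 4, 4 and 3 lower in KI/Hif1α KO, KI/Hif2α KO and KI/DKO (medians 1.75, 2.08 and 1.83). Of 50 other S phase genes 33, 36 and 35 were higher and 2, 2 and 1 lower (medians 0.76, 0.96 and 0.76). In the same order 4, 6 and 6 of 10 CDK inhibitors and pocket proteins were higher, and 3 in each were lower. Of 14 other E2F and DREAM factors 10, 8 and 8 were higher and 3, 2 and 2 lower. Of 17 G1 and G2 partners 8, 8 and 6 were higher and 1 in each lower.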

How the data were processed

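The authors deposited RSEM expected counts and TPM per transcript for kidney RNA of 17 mice (TruSeq stranded mRNA, read on an Illumina NextSeq), made with Trim Galore 0.6.6, cutadapt 2.5 and STAR 2.7.9a. Their notes name both GRCm38 and hg38. The transcript identifiers are mouse: 116770 of 119353 (97.8%) matched GENCODE M21 and held 99.04 to 99.24% of each library's counts, and the other 2583 were left out.

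Expected counts were summed to 35971 genes. filterByExpr (minimum count 10) left out 18960, and the other 17011 were fitted together over 5 groups with edgeR 4.0.16 (TMM, quasi-likelihood test, R 4.3.3), for 8 comparisons and an interaction, calling an adjusted p under 0.05 over all tested genes. A prior count of 2 entered log2 CPM. The fits were tested on simulated data. Tables and plots used Python 3.11.15, pandas 2.3.3 and matplotlib 3.10.9. Library totals ran from 16504419 to 24668827.

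Alternatives were DESeq2 1.42.0 (its test, and its size factors in edgeR), limma 3.58.1 on log2 of TPM plus 1 or plus 0.1, no filter, a log2 difference of at least 1, fits of each pair of groups alone, subsets of Cre(−), a replicate block, each library left out in turn, library totals without TMM, and no mitochondrial genes.

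Named members are 10 anchors (Mki67, Top2a, Cdk1, Ccnb1, Ccnd1, E2f1, Foxm1, Mcm2, Pcna, Plk1) in each comparison with Cre(−) or KI and the members past the threshold, or, where more than 12 passed in a direction, the 6 with the largest difference and a mean TPM of at least 0.5. Other lists name at most 4 genes each. Per-library values and role summaries extend this. The members and lists were chosen with earlier results of these data known. Single transcripts and the coverage of floxed exons were not analysed here.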

Additional observations from a re-analysis of the deposited data

Results flagged for a closer look

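In groups of 4 libraries, each member's CPM, the mean member level, the library total, the mitochondrial share and the summed TPM of each gene list were checked for a library whose gap to its nearest neighbour, as a share of the range of the group, exceeded Dixon's 95% critical value. Of 130 groups of values examined, 2 held such a library, and chance gives about 1 in 20 groups. Foxm1 was low in KI/Hif1α KO replicate 1, at 8.48 CPM against 10.3 to 10.4 CPM in the other libraries of that group (gap 0.933 of the range). Rrm1 was high in Cre(−) replicate 1, at 26.3 CPM against 22.5 to 23.0 CPM (gap 0.866 of the range).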

How the results depend on the processing

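Counts of members called in 21 results gave 315 values under the alternatives, of which 260 were within 1.5 times the reported count. Of 1619 values for 94 named differences, 1545 kept direction and side of the threshold, 50 kept direction and lost the call, 1 gained it and 23 reversed. The cause was not tested. Library totals without TMM, and fits without mitochondrial genes, were added after seeing the data.

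Lower members in KI over Cre(−) (2 reported) were 0 at a log2 difference of at least 1, and 1 by limma on TPM plus 1 or plus 0.1, with only Cre(−) mice without a floxed allele, or with library totals. Against Cre(−) in KI/Hif1α KO, KI/Hif2α KO and KI/DKO (2 each) they were 0 at a difference of at least 1 and by limma on TPM plus 1 or plus 0.1, and 1 with library totals. In KI/Hif2α KO they were also 1 with no filter, with these groups alone and with only Cre(−) mice without a floxed allele.

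Over KI, the lower member of KI/Hif1α KO (1 reported) became 0 at a difference of at least 1, with these groups alone and with the replicate block, and 2 with DESeq2. The higher member of KI/Hif2α KO (1) became 3 with DESeq2 and 0 with no filter, these groups alone, the block, or limma on TPM plus 0.1. In KI/DKO the higher members (2) became 0 at a difference of at least 1 and with these groups alone, and 1 with the block and by limma on TPM plus 1 or plus 0.1, and the lower member (1) became 0 at a difference of at least 1 and with these groups alone. The mean member level over Cre(−) was 1.28 in KI/Hif1α KO and 1.60 in KI/Hif2α KO on log2 of TPM plus 1.

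Leaving out each library in turn gave 37 to 39 higher members in KI over Cre(−), 39 to 41 in KI/Hif1α KO, 39 to 41 in KI/Hif2α KO and 38 to 40 in KI/DKO, and 1 to 2 lower in KI/Hif2α KO. Over KI it gave 0 to 1 lower in KI/Hif1α KO, 0 to 9 higher in KI/Hif2α KO, and 0 to 2 higher and 0 to 1 lower in KI/DKO.

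Reversed differences were Tyms over Cre(−) by limma on TPM plus 1 and plus 0.1 in KI (0.09 and 0.10), KI/Hif2α KO (0.20 and 0.21) and KI/DKO (0.18 and 0.19), and with library totals in KI/Hif2α KO (0.08). With a library left out, differences of KI/Hif1α KO over KI ran from −0.06 to 0.73 (Mki67), −0.02 to 0.65 (Top2a), −0.12 to 0.42 (E2f1) and −0.04 to 0.34 (Foxm1), each turning without KI replicate 3, and from −0.29 to 0.17 (Mcm2), turning without KI replicate 1. Those of KI/DKO over KI ran from −0.06 to 0.48 (E2f1, turning without KI replicate 3), −0.21 to 0.17 (Foxm1, turning without KI replicate 3 or KI/DKO replicate 1 or 2), −0.02 to 0.05 (Pcna, turning without KI replicate 3 or KI/DKO replicate 2) and −0.23 to 0.24 (Mcm2, turning without KI replicate 1), and Mcm2 was 0.00 with these groups alone, 0.23 and 0.25 by limma on TPM plus 1 and plus 0.1, and 0.08 with library totals.

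A replicate block, which joins mice only by their label number, gave 38 higher and 2 lower in KI over Cre(−), 39 and 2 in KI/Hif1α KO, 41 and 2 in KI/Hif2α KO and 39 and 2 in KI/DKO. Over KI the block gave 0 and 0, 0 and 0, and 1 and 1, with 0 between the single deletions and 0 in the interaction. Correlations between libraries of the same number, after removing group means, ran from −0.223 to 0.249 (median −0.0341), and 3 of 17 libraries correlated best with their own number. Depth limits the scarce members most: in Cre(−) a library held 1 to 9 counts of Bub1, 2 to 7 of Ccne1 and 4 to 14 of Cdk1.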
